A study of Homo sapiens with 6 samples.

Results

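Mitotic-high and mitotic-low cells were the top and the bottom 25% of the cells of each DMSO library, chosen by a score measured in these cells, the percent of a cell's UMIs (unique molecular identifiers, each a counted mRNA molecule) that came from 10 genes of mitosis. The 10 genes were TOP2A, MKI67, CENPF, NUSAP1, TPX2, UBE2C, CCNB1, CDK1, BIRC5 and HMMR. Each side held 717 cells, 297 from DMSO replicate 1 and 420 from DMSO replicate 2, and together the sides held 1434 of the 2869 DMSO cells and of the 11937 cells of the series. All libraries came from SK-N-BE(2)-C, a long-established cell line of human neuroblastoma (a childhood tumour of the sympathetic nervous system). They were profiled with Seq-Well S3, in which each cell shares a tiny well with a barcoded capture bead. DMSO is the solvent control. The other libraries, read here only beside the DMSO cells, were treated with TSA (the usual abbreviation of trichostatin A, which blocks the enzymatic activity of histone deacetylases) or with E6R, 2 libraries each. No source used here gives the doses, the treatment times or the structure of E6R. The 2 DMSO libraries carry replicate numbers and no label says that they came from separate cultures, so p-values measure only the spread between these libraries, which may be technical. The result is from 1 cell line, and the labels name no step that would synchronise the cells.

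A dividing cell copies its DNA in S phase and then, in G2 and mitosis, makes the kinases, motors and kinetochore proteins that condense, align and separate the chromosomes. Many of these late genes are held off in resting and G1 cells by the DREAM complex, which recognises a short element called CHR near their start sites and is replaced by MYB and FOXM1 activators as cells enter G2; S-phase genes carry E2F sites in its place. Around the onset of anaphase, the anaphase-promoting complex marks cyclins and securin for destruction. Neuroblastoma cells are also described along an axis from adrenergic cells, which make catecholamine enzymes under HAND2 and GATA3, to mesenchymal cells rich in matrix and adhesion genes.

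The score separated the cells of the 2 libraries unequally. In replicate 1, the mitotic-high cells had a median score of 0.810% of UMIs and the mitotic-low cells 0.0265%. In replicate 2, the medians were 0.703% and 0.174%, so the high sides lay close together and the low side of replicate 2 lay well above that of replicate 1. No UMI of the 10 genes was found in 134 cells (11.3%) of replicate 1 and in 31 cells (1.84%) of replicate 2. The variance of the 10 genes' UMIs per cell was 9.88 times what counting alone gives in replicate 1 and 2.96 times in replicate 2. At the upper edge, the last cell inside scored 0.557% and the next cell outside 0.556% in replicate 1, against 0.554% for both in replicate 2, and 86 and 211 cells lay within 10% of that edge. At the lower edge the values were 0.0952% on both sides in replicate 1 and 0.260% on both sides in replicate 2, with 52 and 150 cells within 10%. Barcodes with under 200 UMIs, too small to be whole cells, held 0.342% of their UMIs in the 10 genes in replicate 1 and 0.411% in replicate 2, beside 0.383% and 0.418% over all kept cells. The part of free RNA in the weaker split of replicate 2 was not tested.

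**Figure D1:**
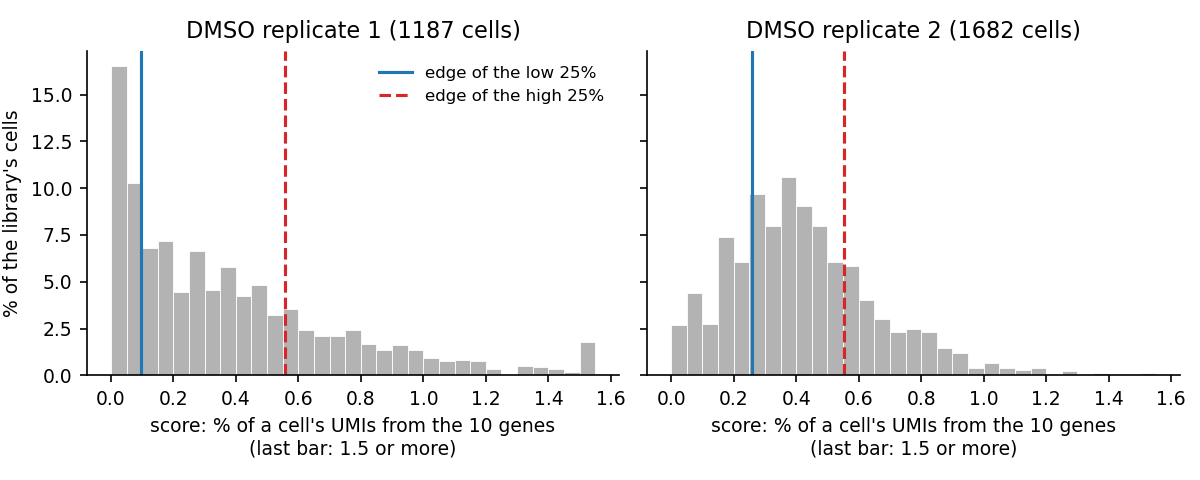
Score of the cells in each DMSO library: the x axis is the percent of a cell's UMIs from the 10 score genes, the y axis the percent of the library's cells per bar, and the lines mark the edges of the low (solid) and high (dashed) 25% of cells. In replicate 1 the cells pile up near 0, whereas in replicate 2 they form 1 hump between the lines, and the low edge lies at 0.260% in place of 0.0952%.

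The 10 score genes chose the cells, so their levels are a description. TOP2A, the topoisomerase that untangles replicated DNA, stood at 2411 CPM (counts-per-million of all UMIs) in the mitotic-high cells and 59.4 in the mitotic-low cells of replicate 1. In replicate 2 it stood at 2208 and 379 CPM, so for TOP2A the libraries differed mostly in the low cells. MKI67, the Ki-67 antigen, followed the same order with 1910 and 56.8 CPM in replicate 1 and 1410 and 267 in replicate 2. The high sides of replicates 1 and 2 also differed for other score genes. They read 1300 and 851 CPM for TPX2, 143 and 68.4 for CDK1, and 465 and 595 for BIRC5. The split was then repeated with 5 score genes while the other 5 were read. Cells ranked by TOP2A, CENPF, TPX2, CCNB1 and BIRC5 held 0.250% of UMIs in the other 5 genes on the high side and 0.0218% on the low side of replicate 1, and 0.148% and 0.0743% in replicate 2. Cells ranked by MKI67, NUSAP1, UBE2C, CDK1 and HMMR held 0.543% and 0.0819% in the other 5 in replicate 1, and 0.391% and 0.233% in replicate 2. Each set of 5 thus read higher on the high side in both libraries. The label says that these cells are rich in mitotic transcripts, and a fixed 25% of cells says nothing about how many cells were in mitosis.

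Median depth was close on the 2 sides, and the mitochondrial share was lower on the high side of replicate 1. Median UMIs per cell were 1872 (high) and 1882 (low) in replicate 1 and 1502 and 1611 in replicate 2, and the summed UMIs per side ran from 791820 to 957232. The median share of mitochondrial UMIs was 5.89% and 6.72% in replicate 1 and 6.19% and 6.16% in replicate 2. In cells thinned to 1000 UMIs each, it was 6.0% and 6.8%, then 6.2% and 6.2%. Over the summed UMIs it was 4.78% and 6.52% in replicate 1 and 6.15% and 5.96% in replicate 2, a mean difference of -0.78 percentage points ± 1.36 (SD, n = 2 libraries). With 2 libraries, an exact permutation test of such a value cannot go below p = 0.5, so none was run. Among the kept cells the DMSO libraries shared 7 barcodes (0.590% of the smaller library). The line's adrenergic genes were present on both sides, with CHGA at 1879 and 1365 CPM in replicate 1 and 917 and 746 in replicate 2, and MYCN, the amplified oncogene of many neuroblastomas, at 327 and 547, then 327 and 347.

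Genes of mitosis other than the score genes were higher in the mitotic-high cells of both libraries, with far larger differences in replicate 1. UMIs were summed per library and side, the score genes were removed, and edgeR's quasi-likelihood test with the library as a block compared the 4 sums. In sums over cells, fewer cells of a kind and less RNA per cell cannot be told apart. Of 9466 genes tested, 194 (2.05%) passed an adjusted p of 0.05, 141 (1.49%) of them higher and 53 (0.56%) lower in mitotic-high cells. Of the 141, 140 had the same sign in both libraries. The difference was larger in replicate 1 for 140 of them, with a median log2 difference of 2.18 there against 0.81 in replicate 2. Of the 53, all but PRSS23 had the same sign in both, with medians of -1.47 and -0.89. The calls were made from these same 2 libraries, so agreement in sign among called genes is no independent support. Across all tested genes, which are not independent, the log2 differences of the libraries had a Pearson r of 0.350.

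The count of calls varied widely between settings in this test of 4 sums with 1 residual degree of freedom. Scaling to total counts in place of TMM gave 456 calls, 274 higher and 182 lower, whereas 0 genes passed without the block, without the 5% of cells with most UMIs, or with the score of TOP2A, CENPF, TPX2, CCNB1 and BIRC5 alone, where 396, 890 and 1128 genes had an unadjusted p under 0.05. In a fit that borrows the spread of the other libraries, 4 genes passed without replicate 1 and 355 without replicate 2. Of the 43 called genes among the 65 named by rule, KIF14 and FGF23 still passed without replicate 1. Directions are therefore given beside the calls: 2754 genes (29.1%) were higher in both libraries and 2861 (30.2%) lower in both, and 240 (2.54%) and 287 (3.03%) by 1.5-fold or more in both, a threshold chosen after the values were seen.

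The 6 lists of mitosis genes held 120 tested members, of which 69 rose, 0 fell and 51 did not pass. Of the 120, 114 were higher in both libraries, 67 by 1.5-fold or more, and 2 were lower in both. Over all tested genes these shares were 29.1%, 2.54% and 30.2%, and 1.49% were called higher. The median log2 difference of the 120 was 1.48, beside -0.01 over all tested genes, with 2.19 in replicate 1 and 0.66 in replicate 2. In 113 members the difference was larger in replicate 1.

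**Figure D2:**
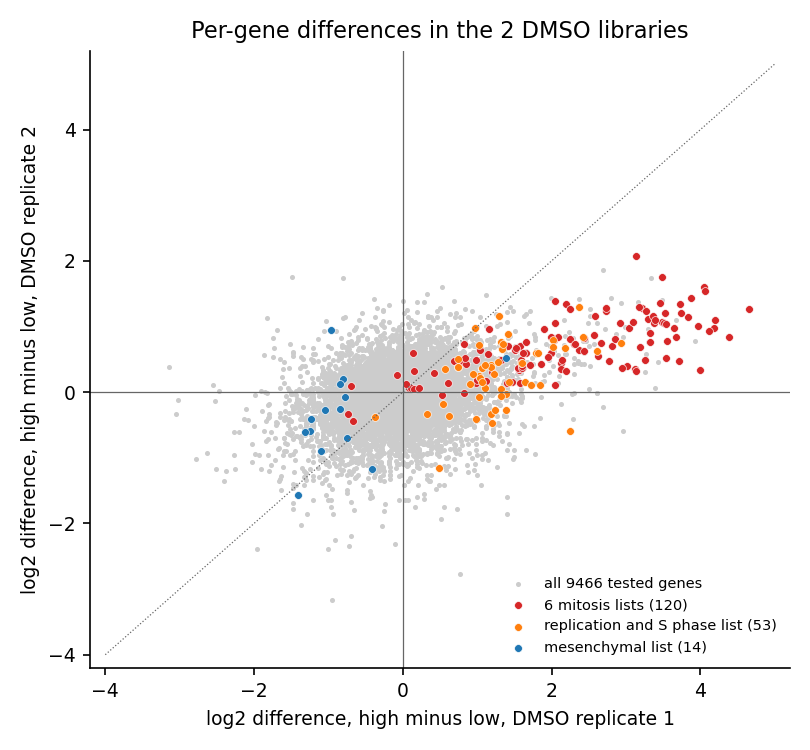
Log2 difference between mitotic-high and mitotic-low cells (values per library with 2 CPM added) in DMSO replicate 1 (x axis) and replicate 2 (y axis), 1 point per tested gene. Of the 120 genes of the 6 mitosis lists (red), 114 lie above 0 on both axes and 113 below the dotted line of equal differences, the 53 S-phase genes (orange) lie closer to the middle and 10 of 14 mesenchymal genes (blue) lie below 0 on both axes.

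Among mitotic kinases, cyclins and phosphatases, 15 of 23 tested members rose and 0 fell, and 23 of 23 were higher in both libraries. Their median log2 difference was 1.68, with 2.81 and 0.69 in the 2 libraries. PLK1 (chr16:23677656-23690367, GRCh38, plus strand), the polo-like kinase that drives mitotic entry and spindle assembly, stood at 337 and 173 CPM in the mitotic-high cells of replicates 1 and 2 and at 23.4 and 74.1 CPM in the mitotic-low cells. The 2 high values lay above the 2 low ones, and the fitted log2 difference was 2.31 ± 0.37 (SE, edgeR adjusted p = 0.00732). BUB1B (chr15:40161023-40221136, plus strand), the checkpoint kinase-like protein BubR1, was counted with 123 and 91 UMIs in the high cells and with 5 and 32 in the low cells, a difference of 2.56 ± 0.38 (adjusted p = 0.00465).

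CCNA2 (chr4:121816444-121823933, minus strand), cyclin A2 of S and G2 phase, read 294 and 146 CPM against 16.9 and 71.9 CPM, and rose by 2.23 ± 0.42 (adjusted p = 0.0131). In replicate 2 its high and low values differ by a log2 of 1.0, in replicate 1 by 3.97. AURKA (chr20:56369389-56392337, minus strand), the centrosomal Aurora kinase, stood at 313 and 130 CPM in high cells and 22.1 and 93.1 CPM in low cells, and its adjusted p of 0.0483 was just inside the threshold. CCNB2 (chr15:59105078-59125045, plus strand), cyclin B2, had 154 and 75 UMIs in the high cells and 7 and 66 in the low cells, so that nearly all of its difference of 1.69 ± 0.48 lay in replicate 1, and it did not pass (adjusted p = 0.0963). FOXM1, an activator of these genes, rose by 1.08 with 263 and 220 CPM against 71.6 and 164 CPM (adjusted p = 0.0419). CDC25B, the phosphatase that starts mitotic entry, rose by 1.06 ± 0.19 with 332 and 239 CPM against 124 and 146 CPM (adjusted p = 0.0111). WEE1, which holds CDK1 back, had the lowest difference of the list at 0.61 and did not pass.

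The kinesin and spindle assembly list had the highest median of the 19 lists, with 18 of 24 members called higher, 24 of 24 higher in both libraries and a median log2 difference of 1.91 (3.07 and 0.92 in the libraries). ASPM (chr1:197084128-197146694, minus strand), a spindle-pole protein, stood at 661 and 451 CPM in mitotic-high cells and at 37.7 and 154 CPM in mitotic-low cells. Both high values exceeded both low values and the difference was 2.59 ± 0.37 (adjusted p = 0.00377). KIF14 (chr1:200551497-200620734, minus strand), a kinesin of cytokinesis, read 297 and 223 CPM against 24.7 and 64.5 CPM, with a difference of 2.52 ± 0.29 (adjusted p = 0.00204). It also passed in DESeq2, under a test against a 1.5-fold change and without replicate 1, where its difference was 1.85 (adjusted p = 0.0409).

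KIF23, which bundles the midzone microtubules, rose by 2.39 ± 0.40 from 7.81 and 28.6 CPM to 128 and 75.4 CPM (adjusted p = 0.00788). KIF22, a chromosome-arm motor, rose by 1.48 ± 0.29 from 71.6 and 124 CPM to 379 and 193 CPM (adjusted p = 0.0158). The members with lower values include 2 that also serve interphase cells. TUBG1, gamma-tubulin of the centrosome, read 280 and 258 CPM in high cells against 121 and 207 CPM in low cells (0.74 ± 0.20, adjusted p = 0.0862), and NUMA1 had the lowest difference of the list at 0.24.

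Of 25 kinetochore and spindle checkpoint genes, 12 rose, and 25 of 25 were higher in both libraries, with a median of 1.56 (2.19 and 0.75). CENPE (chr4:103105806-103198409, minus strand), the kinetochore kinesin, stood at 508 and 374 CPM in high cells and 44.2 and 145 CPM in low cells (2.27 ± 0.32, adjusted p = 0.00377). NUF2, a subunit of the NDC80 complex, was counted with 129 and 115 UMIs in high cells and 3 and 52 in low cells (adjusted p = 0.0131). The 3 UMIs in the low cells of replicate 1 leave the size of its difference there imprecise. HJURP, which loads the centromeric histone CENPA, read 181 and 118 CPM against 14.3 and 43.4 CPM (2.31 ± 0.34, adjusted p = 0.0044). SGO2, which guards centromeric cohesion, rose by 1.95 ± 0.27 from 40.3 and 83.6 CPM to 278 and 205 CPM (adjusted p = 0.00359). BUB3, a checkpoint protein also expressed outside mitosis, read 305 and 146 CPM against 115 and 132 CPM and did not pass (0.79 ± 0.24, adjusted p = 0.121).

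**Figure D3:**
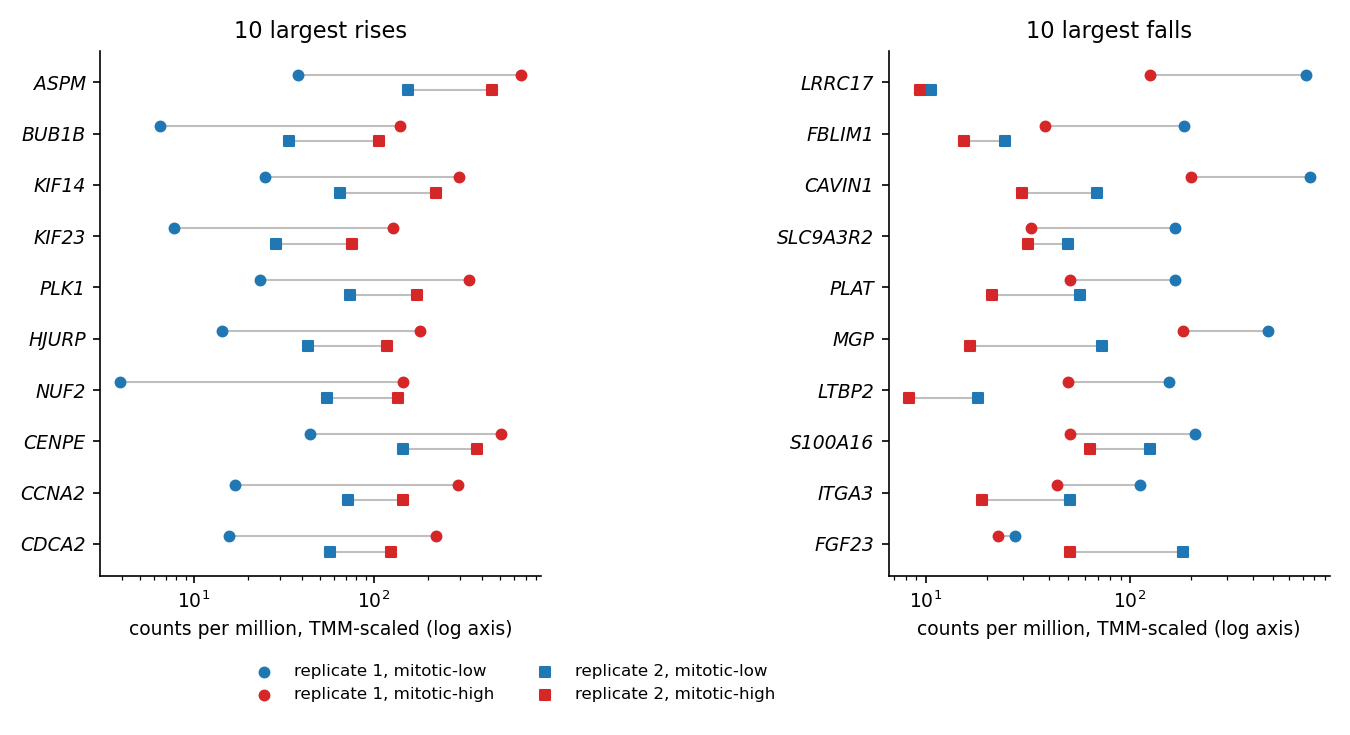
CPM (log axis) of the 10 largest rises and the 10 largest falls named by rule, in mitotic-high (red) and mitotic-low (blue) cells of DMSO replicate 1 (circles) and replicate 2 (squares). For the rises, the high values of both libraries lie right of both low values, and the low values of replicate 2 lie right of those of replicate 1; for LRRC17 the 2 values of replicate 2 nearly coincide at 9.43 and 10.6 CPM.

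In the condensin and chromosome compaction list, 11 of 16 rose and 15 were higher in both libraries (median 1.08, with 1.66 and 0.56). SMC4, the core ATPase of condensin, stood at 1443 and 1048 CPM in high cells and 303 and 596 CPM in low cells (1.51 ± 0.24, adjusted p = 0.00732). HMGB1, an abundant chromatin protein, rose by 0.68 ± 0.15 from 798 and 880 CPM to 1424 and 1268 CPM (adjusted p = 0.0317). STAG2, a cohesin subunit that loops chromatin throughout the cycle, read 170 and 176 CPM against 111 and 159 CPM and did not pass (0.37 ± 0.19, adjusted p = 0.431).

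Of 16 genes of cytokinesis and the nuclear envelope, 9 rose, 13 were higher in both libraries and 2 were lower in both (median 1.45). ANLN, anillin of the contractile ring, read 194 and 192 CPM in high cells and 16.9 and 92 CPM in low cells (1.92 ± 0.35, adjusted p = 0.0111). TMPO, a lamina-associated protein, rose by 1.21 ± 0.21 from 87.2 and 125 CPM to 279 and 213 CPM (adjusted p = 0.00959). LMNB1, a B-type lamin, rose by 1.60 (103 and 61.3 CPM against 23.4 and 28.6 CPM, adjusted p = 0.0131), whereas LMNA, the A-type lamin, read 569 and 629 CPM in high cells and 954 and 797 CPM in low cells and did not pass (-0.54 ± 0.16, adjusted p = 0.1).

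Of 16 genes of the anaphase-promoting complex and mitotic exit, 4 rose and 0 fell, with a median of 0.48. CDC20 (chr1:43358955-43363203, plus strand), the mitotic activator of the complex, stood at 161 and 69.5 CPM in high cells and 14.3 and 40.2 CPM in low cells (1.95 ± 0.40, adjusted p = 0.0192). PTTG1, securin, read 147 and 103 CPM against 36.4 and 69.8 CPM (1.21 ± 0.27, adjusted p = 0.0323), and UBE2S, the E2 enzyme that lengthens its ubiquitin chains, rose by 0.72 ± 0.18 (adjusted p = 0.0468). None of the 8 core subunits in the list passed, but with 2.05% of all tested genes called, few calls would fall among 8 genes. ANAPC1, ANAPC5, ANAPC11, ANAPC15 and CDC16 had differences of 0.08 to 0.10, CDC23 and CDC27 of 0.38 and 0.58, and CDC26 of -0.26. The regulators ESPL1 (1.67, adjusted p = 0.113) and FBXO5 (1.04, adjusted p = 0.256) did not pass either. FZR1, the co-activator that follows CDC20 at mitotic exit, read 43.0 and 34.2 CPM against 14.3 and 30.7 CPM (0.76, adjusted p = 0.407).

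The start regions of these genes were read for the elements that are known to time their expression. RefSeq promoters of GRCh38.p14, 250 bases before to 50 after the annotated start, were matched by symbol for 114 of the 141 genes called higher. The regions below show promoters with and without the CHR letters searched, 5′ to 3′ on the gene's strand, with the matches in capitals. Searched on both strands were TTTGAA or TTCGAA for CHR, CCAAT, and TTTGGCGC, TTTCGCGC or TTCCCGCC for E2F; a match on the other strand appears as its reverse complement, and matches may overlap.
CCNB2, chr15:59104896-59105195, plus strand, with 4 CCAAT and 1 CHR match: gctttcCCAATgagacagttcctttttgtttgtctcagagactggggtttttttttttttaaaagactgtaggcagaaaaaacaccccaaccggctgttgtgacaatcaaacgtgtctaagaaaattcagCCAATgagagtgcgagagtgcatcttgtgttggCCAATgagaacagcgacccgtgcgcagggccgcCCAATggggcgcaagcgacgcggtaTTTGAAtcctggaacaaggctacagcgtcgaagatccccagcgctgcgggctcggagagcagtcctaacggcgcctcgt
PLK1, chr16:23678639-23678938, plus strand, with 1 CCAAT and 1 CHR match: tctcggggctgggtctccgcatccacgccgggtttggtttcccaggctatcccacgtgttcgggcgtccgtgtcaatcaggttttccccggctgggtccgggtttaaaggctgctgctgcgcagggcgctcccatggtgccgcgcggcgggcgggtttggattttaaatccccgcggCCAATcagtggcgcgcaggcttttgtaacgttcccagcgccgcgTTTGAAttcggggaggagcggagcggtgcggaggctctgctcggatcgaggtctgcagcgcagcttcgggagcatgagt
CDC20, chr1:43358731-43359030, plus strand, with 2 CCAAT and 2 CHR matches: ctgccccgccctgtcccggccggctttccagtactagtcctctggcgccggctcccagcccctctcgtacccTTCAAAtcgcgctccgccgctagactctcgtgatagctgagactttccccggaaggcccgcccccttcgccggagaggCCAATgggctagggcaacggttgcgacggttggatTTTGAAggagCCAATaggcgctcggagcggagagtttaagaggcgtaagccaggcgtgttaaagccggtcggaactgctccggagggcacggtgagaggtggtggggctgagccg
BUB1B, chr15:40160819-40161118, plus strand, with 1 CHR match alone: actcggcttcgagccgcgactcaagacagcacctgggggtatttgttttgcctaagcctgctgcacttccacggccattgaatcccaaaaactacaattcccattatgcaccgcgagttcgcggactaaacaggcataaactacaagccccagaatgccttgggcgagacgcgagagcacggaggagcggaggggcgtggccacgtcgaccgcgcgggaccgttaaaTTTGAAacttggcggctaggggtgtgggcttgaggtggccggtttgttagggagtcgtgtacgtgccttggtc
CCNA2, chr4:121823834-121824133, minus strand, with 1 CCAAT match and none of the CHR letters searched: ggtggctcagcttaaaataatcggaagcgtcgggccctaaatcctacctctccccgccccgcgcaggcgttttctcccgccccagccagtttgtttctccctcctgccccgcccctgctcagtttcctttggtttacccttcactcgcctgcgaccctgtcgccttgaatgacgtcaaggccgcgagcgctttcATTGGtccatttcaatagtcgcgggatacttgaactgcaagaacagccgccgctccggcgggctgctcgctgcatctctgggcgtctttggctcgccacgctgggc
PCNA, chr20:5126573-5126872, minus strand, an S-phase gene with 3 CCAAT matches and 1 E2F match: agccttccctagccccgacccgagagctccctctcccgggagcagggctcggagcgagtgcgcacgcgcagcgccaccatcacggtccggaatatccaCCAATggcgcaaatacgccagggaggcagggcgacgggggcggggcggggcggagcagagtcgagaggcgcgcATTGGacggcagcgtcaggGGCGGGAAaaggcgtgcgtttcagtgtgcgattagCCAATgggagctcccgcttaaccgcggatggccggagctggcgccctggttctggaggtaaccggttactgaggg
MCM2, chr3:127598161-127598460, plus strand, an S-phase gene with 2 overlapping E2F matches: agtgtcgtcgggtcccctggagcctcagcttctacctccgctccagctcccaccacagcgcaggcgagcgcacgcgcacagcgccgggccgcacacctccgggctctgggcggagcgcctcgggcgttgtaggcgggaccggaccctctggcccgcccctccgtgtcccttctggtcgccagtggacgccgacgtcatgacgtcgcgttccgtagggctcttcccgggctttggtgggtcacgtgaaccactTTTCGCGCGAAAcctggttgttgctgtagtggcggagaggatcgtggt

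In CCNB2 and PLK1 the CHR match began 29 bases before the start, in BUB1B 23 bases before it and in CDC20 65 and 178 bases before it. CHR letters were found in 56 of the 114 matched promoters of genes called higher (49.1%), in 61 of 105 matched members of the 6 mitosis lists (58.1%) and in 805 of 7645 matched promoters of all tested genes (10.5%). They were found in 7 of 40 promoters of genes called lower (17.5%) and in 2 of 46 of the replication and S phase list (4.35%). They stood in 16.6% of all 27305 RefSeq promoters of this length. E2F letters were found in 27 of 46 promoters of the replication list (58.7%), 13.3% of those of the 6 mitosis lists, 14.9% of those of genes called higher and 7.65% of all tested. CCAAT letters stood in 59.6% of promoters of genes called higher and 38.2% of all tested. Of the CHR matches, 52 of 71 (73.2%) in genes called higher and 332 of 885 (37.5%) in all tested genes began in the 150 bases around the start (100 before to 50 after), which is 50% of the window. CCNA2 and CENPE rose and hold neither of the CHR spellings searched here. Other spellings were not searched, so this does not show that these promoters lack the element. A match is a description of the letters and no measure of binding.

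S-phase genes had smaller differences than the mitosis genes. Of 53 tested members of the replication and S phase list, 12 rose, 0 fell and 41 did not pass. Of the 53, 39 were higher in both libraries and 1 lower in both, and the median was 0.75 (1.24 and 0.36). Among all tested genes, 1.49% were called higher, 29.1% were higher in both libraries and 30.2% lower in both. RRM2, the small subunit of ribonucleotide reductase, stood at 369 and 305 CPM in high cells and 58.6 and 197 CPM in low cells (1.5 ± 0.31, adjusted p = 0.0196). TYMS, thymidylate synthase, rose by 1.38 (119 and 80.2 CPM against 24.7 and 49.7 CPM, adjusted p = 0.0293), and RFC2, a subunit of the clamp loader, by 0.89 ± 0.20 (344 and 183 CPM against 141 and 132 CPM, adjusted p = 0.0328). The replicative helicase and the sliding clamp did not pass. MCM4 read 498 and 316 CPM against 237 and 245 CPM (0.72 ± 0.18, adjusted p = 0.0556), and PCNA 122 and 125 CPM against 58.6 and 107 CPM (0.60 ± 0.22, adjusted p = 0.222). MCM2 was higher in high cells of replicate 1 (105 against 50.7 CPM) and not of replicate 2 (58.9 against 62.4 CPM), with an adjusted p of 0.477.

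Over 4 equal bins of cells ordered by the score, the outer bins being the mitotic-low and mitotic-high cells, S-phase and mitosis genes took different courses, given here without a test. In replicate 1 the kinases, cyclins and phosphatases summed to 963, 1875, 2761 and 4628 CPM from the lowest to the highest bin, a steady climb. The replication list summed to 2413, 5499, 6815 and 6262 CPM in the same cells, so most of its difference lay between the lowest bin and the rest and the peak was the third bin. MCM2 followed that course with 49.3, 109, 151 and 103 CPM, and MCM4 with 230, 510, 603 and 488 CPM, whereas ASPM climbed from 36.6 to 94.8, 230 and 649 CPM. In replicate 2 both kinds were flatter. The kinase list read 1786, 2356, 2519 and 2840 CPM and the replication list 3886, 4868, 4763 and 4852 CPM, while ASPM still climbed from 153 to 212, 338 and 433 CPM.

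**Figure D4:**
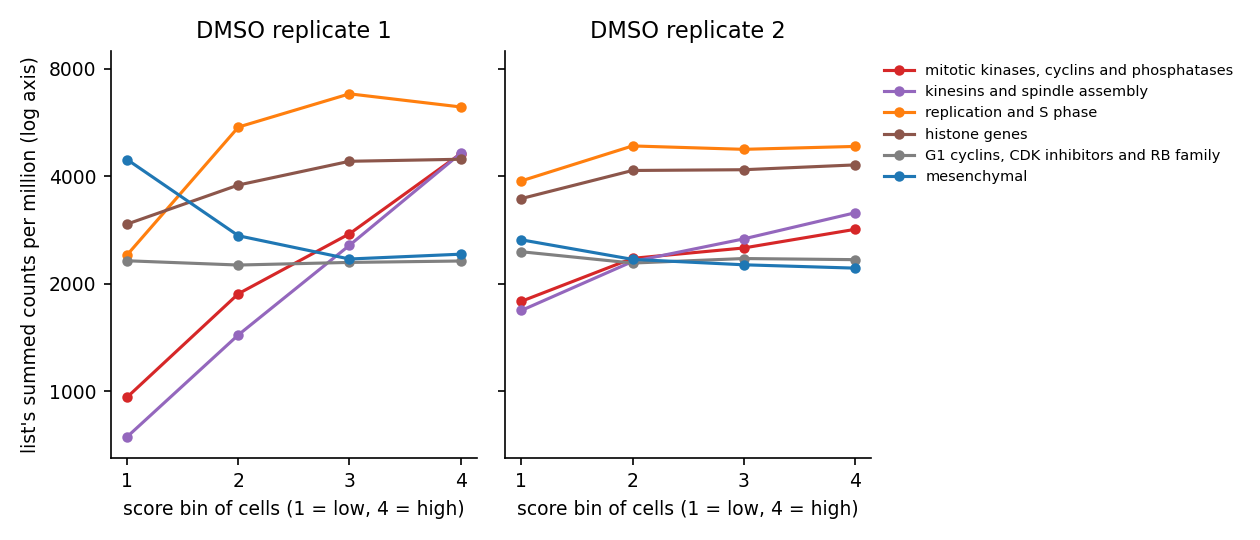
Summed CPM (log axis) of 6 gene lists in the cells of each DMSO library, divided into 4 equal bins by the mitotic score (x axis, 1 lowest, 4 highest). In replicate 1 the kinases and kinesins rise over all 4 bins, the replication list peaks at 6815 CPM in the third bin, the mesenchymal list drops from 4455 to 2726 CPM after the first bin and the G1 list stays between 2257 and 2320 CPM; replicate 2 shows smaller steps.

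Histone genes showed a partial rise, with 4 of 15 tested members called higher and 14 higher in both libraries (median 0.84). Among all tested genes these shares were 1.49% and 29.1%. HIST1H4C, a replication-dependent H4 gene, read 247 and 411 CPM in high cells and 70.3 and 229 CPM in low cells (1.25 ± 0.21, adjusted p = 0.00788). H2AFZ, the H2A.Z variant, rose by 0.84 ± 0.19 from 384 and 351 CPM to 936 and 457 CPM (adjusted p = 0.0333). H3F3A, a replacement H3.3 gene made throughout the cycle, read 1121 and 1313 CPM against 1046 and 1214 CPM (0.11 ± 0.15, adjusted p = 0.835). Replication-dependent histone mRNA mostly lacks a poly(A) tail, so its level depends on what the capture step retains.

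Of 13 tubulin and microtubule-binding genes, TUBB4B, TUBB and TUBA1B rose, 10 did not pass and the median was 0.06. Among all tested genes 1.49% were called higher. TUBB4B stood at 1727 and 1974 CPM in high cells and 515 and 1370 CPM in low cells (1.12 ± 0.22, adjusted p = 0.0166). TUBB, a broadly used beta-tubulin, rose by 0.71 ± 0.17 (2131 and 1370 CPM against 1053 and 1033 CPM, adjusted p = 0.0423). TUBB3, the neuronal isotype, read 974 and 1404 CPM in high cells and 1188 and 1742 CPM in low cells, a difference of -0.30 with an adjusted p of 0.419.

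Of 19 tested G1 cyclins, CDK inhibitors and RB family genes, CDKN3 alone rose and 0 fell, with a median of 0.09. Over all tested genes 2.05% were called, so this list did not hold fewer calls than the rest. Of the 19, 8 were higher in both libraries and 4 lower in both. CDKN3, a phosphatase of CDKs that peaks in mitosis, read 233 and 166 CPM against 33.8 and 84.6 CPM (1.75 ± 0.30, adjusted p = 0.00875). CCND1, cyclin D1, stood at 939 and 1221 CPM in high cells and 1265 and 1302 CPM in low cells (-0.26 ± 0.15, adjusted p = 0.525). CDKN1A, the p21 arrest gene, read 28.3 and 120 CPM against 24.7 and 111 CPM (adjusted p = 0.874), with a larger step between libraries than between sides.

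Of 21 tested adrenergic identity genes, 1 was called higher, with opposite signs in the 2 libraries, and 0 were called lower. Of the 21, 5 were higher in both libraries and 8 lower in both, and the median was -0.03. MYCN differed by -0.42 ± 0.17 (adjusted p = 0.306). Of 19 neuronal maturation genes, 0 passed in either direction (median -0.13), where 2.05% of all tested genes passed. Of the 19, 3 were higher in both libraries and 11 lower in both. Over all tested genes these shares were 29.1% and 30.2%.

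Of the 53 genes lower in mitotic-high cells, 50 belonged to none of the lists. The 10 largest falls named by rule were LRRC17, FBLIM1, CAVIN1, SLC9A3R2, PLAT, MGP, LTBP2, S100A16, ITGA3 and FGF23. CAVIN1 (chr17:42402452-42423517, minus strand), which coats caveolae, stood at 200 and 29.5 CPM in mitotic-high cells and 759 and 68.8 CPM in mitotic-low cells (-1.71 ± 0.20, adjusted p = 0.00204). Within each library the high cells were lower, but the library step was larger than the side step: both values of replicate 1 exceeded both of replicate 2. MGP, matrix Gla protein, had 182 and 16.5 CPM against 472 and 73.0 CPM (-1.58 ± 0.21, adjusted p = 0.00359). PLAT, tissue plasminogen activator, read 50.9 and 21.2 CPM against 165 and 57.1 CPM (-1.60 ± 0.24, adjusted p = 0.00465).

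LRRC17, a secreted leucine-rich repeat protein, fell by 2.25 on the log2 scale (adjusted p = 0.00359) on the strength of replicate 1, where it read 126 CPM against 731 CPM. In replicate 2 it had 8 UMIs in high cells and 10 in low cells, and without replicate 1 the difference was -0.10. FGF23 went the other way. This phosphate hormone gene read 22.6 and 27.3 CPM in replicate 1 and 50.7 and 182 CPM in replicate 2, so its fall of -1.36 ± 0.31 (adjusted p = 0.0323) rests on replicate 2, was -0.27 without it, and turned to 0.12 when the top and bottom 10% of cells were compared. ITGA3, an integrin of laminin binding, differed to a similar extent in both libraries, with 44.1 and 18.9 CPM against 112 and 50.8 CPM (-1.37 ± 0.26, adjusted p = 0.015). LTBP2, S100A16, FBLIM1 and SLC9A3R2 had fitted differences of -1.5 to -1.80 and were lower in both libraries, as the naming rule required. In that order they differed by -1.61, -1.99, -2.21 and -2.27 in replicate 1 and by -0.96, -0.95, -0.60 and -0.61 in replicate 2. In replicate 2, LTBP2 had 7 UMIs in high and 17 in low cells, and FBLIM1 had 13 and 23.

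Of 14 tested mesenchymal neuroblastoma genes, CD44 and S100A6 fell and 0 rose. Of the 14, 10 were lower in both libraries and 1 was higher in both (median -0.72, with -0.90 and -0.34). Over all tested genes, 0.56% were called lower, 30.2% were lower in both libraries and 29.1% higher in both. CD44, a hyaluronan receptor, read 64.5 and 22.4 CPM in high cells and 141 and 43.4 CPM in low cells (-1.06 ± 0.24, adjusted p = 0.033). S100A6, a calcium-binding protein, read 140 and 480 CPM against 333 and 639 CPM (-0.79 ± 0.19, adjusted p = 0.0438). VIM, vimentin, stood at 993 and 773 CPM against 1783 and 922 CPM and did not pass (-0.55 ± 0.17, adjusted p = 0.117). TWIST1, the member higher in both libraries, read 23.7 and 23.6 CPM against 7.81 and 15.9 CPM (adjusted p = 0.338). By score bins, the list summed to 4455, 2726, 2346 and 2420 CPM in replicate 1 and to 2655, 2341, 2260 and 2212 CPM in replicate 2, so the higher level belonged to the lowest bin of replicate 1.

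Of 17 markers of other cell types, 5 were tested, of which 1 fell and 3 were lower in both libraries. Among all tested genes these shares were 0.56% and 30.2%. PECAM1, an endothelial marker, fell by 1.77 on the log2 scale (adjusted p = 0.0423), with 20.4 CPM in the high cells and 71.6 in the low cells of replicate 1 and 1 and 3 UMIs in replicate 2. The 17 markers of immune, endothelial, Schwann and fibroblast cells summed to 151 UMIs in the high and 329 in the low cells of replicate 1, and to 47 and 60 in replicate 2. CD3E, LYZ and SOX10 were at 0 on both sides of both libraries. In replicate 1, 36 cells held 2 or more UMIs of PECAM1, VWF or CDH5, of which 20 were mitotic-low (6.73% of them) and 8 mitotic-high (2.69%); replicate 2 had 0 such cells. Without them, edgeR called 272 genes higher and 135 lower, 190 of them among the 194, and CAVIN1 and MGP differed by -1.68 and -1.44. The 36 cells held 0.577% of their UMIs in the adrenergic list, against 0.781% in the other cells of replicate 1. In the mesenchymal list they held 0.401%, against 0.286%. Cells with fewer such UMIs stayed in, and the part of endothelial-like cells in the falls was not tested.

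No member of 5 lists of general cell activity passed. Over all tested genes 2.05% were called, a share that gives few calls in lists of this size. In the edgeR test 0 of 78 cytosolic ribosomal protein genes (median -0.01), 13 mitochondrially encoded genes (-0.13), 20 nucleolar genes (0.08), 18 immediate early and stress genes (-0.03) and 9 long noncoding RNAs (-0.04) were called in either direction. In each of these 5 lists the medians of replicates 1 and 2 had opposite signs, from -0.47 and 0.22 for the stress genes to -0.12 and 0.10 for the ribosomal proteins. NCL, nucleolin, had the highest difference of the nucleolar list at 0.49 ± 0.15 (adjusted p = 0.119). MALAT1, a nuclear RNA whose share rises when cytoplasm is lost, read 2113 and 2658 CPM against 1684 and 2128 CPM (0.32 ± 0.15, adjusted p = 0.392).

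The same split was made in the TSA and E6R libraries, which the DMSO rule did not use. Of the 141 genes higher in mitotic-high DMSO cells, 123 (87.2%) were also called higher under TSA, where 601 genes (5.13% of 11716) were, so that they make up 20.5% of the TSA calls. Under E6R, 140 of the 141 (99.3%) were called higher, 12.2% of the 1146 calls there (9.29% of 12330). Of the 53 lower genes, 33 (62.3%) were also lower under TSA, which tested 49 of them and called 553 genes (4.72%), and 49 (92.5%) under E6R, which called 1080 (8.76%). They made up 5.97% and 4.54% of those calls. Called in the opposite direction were 0 in either treatment. ASPM rose by 2.40 under TSA and 3.72 under E6R, PLK1 by 2.05 and 3.03 and KIF14 by 1.83 and 3.25, beside 2.31 to 2.59 for these 3 under DMSO. CCNB2, not called under DMSO, rose by 1.77 under TSA (adjusted p = 1.37e-10) and by 2.46 under E6R. LRRC17 fell by 2.52 and by 1.41 and MGP by 2.00 and by 1.02, whereas FGF23 had differences of 0.31 and -0.05 that did not pass. Of the 14 mesenchymal genes, 12 fell under TSA and 11 under E6R.

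**Figure D5:**
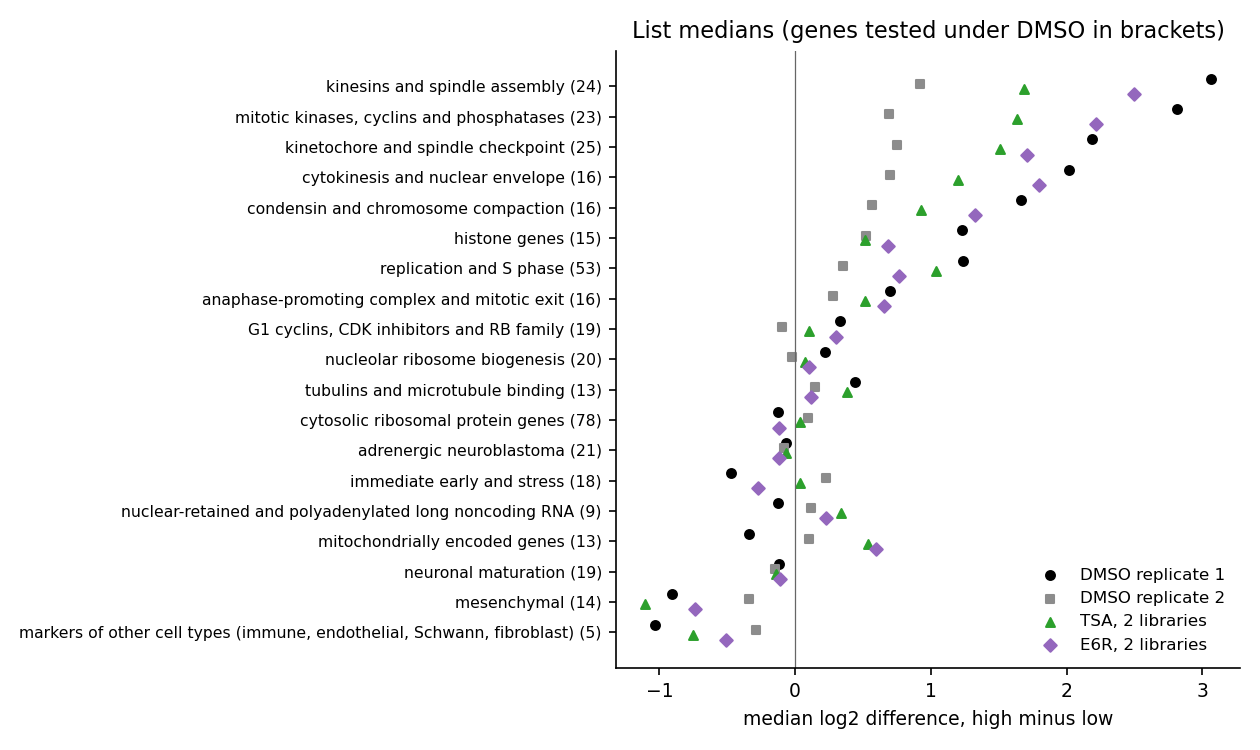
Median log2 difference between mitotic-high and mitotic-low cells over the tested genes of each list, in DMSO replicate 1, DMSO replicate 2, and fitted over the 2 TSA and the 2 E6R libraries. The mitosis lists lie right of 0 in each, furthest in DMSO replicate 1 (kinesins 3.07) and least in DMSO replicate 2 (0.92), and the mesenchymal list lies left of 0 in each.

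Whether the effect itself differed between treatments was tested by an interaction over the 12 sums of all 6 libraries. Against TSA, 0 of 13540 genes passed in edgeR (0% of those tested, with 946 at an unadjusted p under 0.05) and 0 in DESeq2 (316 unadjusted). Against E6R, 0 passed in either tool (436 and 94 unadjusted). The smallest adjusted p against TSA was 0.217, for SDC2, a syndecan, and C11orf96. H2AFZ came next (adjusted p = 0.258), with fitted differences of 0.86 under DMSO and -0.36 under TSA. It read 918 and 438 CPM (high) against 373 and 347 (low) under DMSO, and 186 and 100 against 264 and 126 under TSA, each scaled to total counts. The interaction was 1.21 ± 0.25 on the log2 scale. A p that misses the threshold does not show that the effects were alike.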

How the data were processed

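The authors deposited raw counts, whole-number UMI counts per gene and barcode for each of the 6 Seq-Well S3 libraries; STARsolo 2.7.9a and GRCh38 are named in the submitters' processing notes, and no source used here names the strand setting or annotation. Barcodes with 1000 or more UMIs, 500 or more genes and at most 20% mitochondrial UMIs were kept, with no doublet caller; an alternative dropped the deepest 5% of cells. Ties at the 25% edges were ordered at random (seed 1). UMIs summed per library and side were tested with edgeR 4.0.16 (R 4.3.3; TMM, filterByExpr, quasi-likelihood, library as block, Benjamini-Hochberg). The 2 sides come from the same library, which is what pairs them. The prior degrees of freedom were 13.9 and the biological coefficient of variation 0.125. Printed CPM are scaled by TMM and differences per library add 2 CPM; score bins and values across treatments use total counts. DESeq2 1.42.0 was an alternative. The procedure was tested on simulated data. UMI depth sets the counting error, and intervals over cells were not used.

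Named genes were, among called genes of 50 CPM or more with the same sign in both libraries, the 10 largest rises and falls, with the most abundant called and uncalled members of each list and a few fixed cell cycle genes; other genes named in the text were chosen after their values were seen. Some genes that the rule or the lists hold are not reported here by name; they stay in the counts of calls and list members. The score genes and the lists were chosen with earlier results of these data known. Positions come from GENCODE 29, which held 34616 of 36601 gene identifiers; genes that overlap, such as PLK1 and ERN2, NUF2 and RGS5 or BUB1B and BUB1B-PAK6, could not be separated.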

Additional observations from a re-analysis of the deposited data

How the results depend on the processing

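The main test called 194 genes, 93 of them counted as list members. With the sides taken within 10 classes of depth it called 487 and 149, with total counts only 456 and 146, with no low-count filter 421 and 145, without the cells holding 2 or more endothelial marker UMIs (an alternative chosen after seeing the data) 407 and 138, and with the top and bottom 10% 348 and 128. Thinning to 1000 UMIs gave 111 genes, 91 of them among the 194. The score from MKI67, NUSAP1, UBE2C, CDK1 and HMMR gave 51 genes and 21 list members, a test against a 1.5-fold change 25 and 15, and DESeq2 13 and 7. Both counts were 0 in the fit with no replicate block, without the 5% of cells with most UMIs, and with the score from TOP2A, CENPF, TPX2, CCNB1 and BIRC5. The prior degrees of freedom, which set how far the spread is shared among genes, were 4.57, 8.41 and 6.40 in these 3 fits and 13.9 in the main one. They were 12.2 with the MKI67, NUSAP1, UBE2C, CDK1 and HMMR score (51 genes) and 12.4 with all tied cells kept (169 genes). With all 6 libraries in one fit they were 17.2, without the endothelial marker cells 83.7 and with the sides taken within classes of depth 384. They were unlimited with total counts only, with no filter, with the top and bottom 10% and with thinned cells (111 genes). Among these fits, higher prior degrees of freedom mostly went with more calls, least so in the thinned cells. The causes were not tested. Leaving out 1 DMSO library gave 4 genes (without replicate 1) to 355 (without replicate 2), and 1 to 122 list members. The other alternatives, all 6 libraries in one fit and all tied cells kept, gave 247 and 169 genes. Among the 43 called named genes, 1 changed direction under any of the 16 alternatives, FGF23 to 0.12 with the top and bottom 10%. Of the 22 named genes not called, 6 crossed 0 under at least 1 alternative: CDKN1A, H3F3A, MALAT1, MAP1B, MCM2 and SCG2. The interaction with TSA, 0 genes, became 24 with no low-count filter and ran from 0 to 1 when a DMSO library was left out. The interaction with E6R, 0 genes, became 4 with no filter and 1 with the score from MKI67, NUSAP1, UBE2C, CDK1 and HMMR, and ran from 0 to 2 when a DMSO library was left out; these causes were not tested. Few UMIs limit single genes: at 791820 UMIs in the smallest sum, 1 UMI is 1.26 CPM.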

Other observations

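Among the called genes outside the lists, 3 that act on chromatin were chosen after their values were seen, and other genes of that kind were not counted. DNMT1, which copies DNA methylation at the replication fork, read 417 and 380 CPM in the high cells of replicates 1 and 2 and 185 and 227 CPM in the low cells (log2 difference 0.95 ± 0.17, edgeR adjusted p = 0.0102). EZH2, the Polycomb methyltransferase, read 129 and 131 CPM against 46.8 and 69.8 CPM (1.15 ± 0.21, adjusted p = 0.0111). SUV39H1, a methyltransferase of heterochromatin, read 69.0 and 47.1 CPM against 10.4 and 20.1 CPM (1.87 ± 0.37, adjusted p = 0.0166). In replicates 1 and 2 the difference was 1.17 and 0.73 for DNMT1 and 1.42 and 0.89 for EZH2. All 3 were also called higher under TSA and under E6R, DNMT1 by 1.37 and 1.21 and EZH2 by 0.90 and 1.07.

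Among the called genes outside the lists that were lower, 4 for secreted proteins were likewise chosen after their values were seen, with no count of others. NPY, a sympathetic neuropeptide, read 165 and 146 CPM in high cells and 316 and 244 CPM in low cells (-0.84 ± 0.17, adjusted p = 0.0166), and differed by -0.93 and -1.0 under TSA and E6R. VIP, another neuropeptide, read 308 and 117 CPM against 877 and 160 CPM (-1.06 ± 0.21, adjusted p = 0.0166). TIMP1, an inhibitor of matrix proteases, read 167 and 171 CPM against 301 and 341 CPM (-0.92 ± 0.16, adjusted p = 0.0107), nearly the same in the 2 libraries. IGFBP5, which binds insulin-like growth factors, read 297 and 120 CPM against 586 and 213 CPM (-0.91 ± 0.16, adjusted p = 0.0107).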
